A study of Homo sapiens with 16 samples.

Results

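Zinc finger genes are the largest family of transcription factor genes in the human genome, and those described here are the abundantly expressed ones among the genes named ZNF followed by a number. They were chosen by their level: of 23230 gene symbols in the count files, 485 have such a name, and the 200 with the highest mean CPM (a gene's count scaled to a fixed total of gene counts per library) over all 16 libraries were kept. The mean CPM was 16.63 for ZNF704, 16.59 for ZNF789 and 16.58 for ZNF788, the last ones inside the limit, and 16.56 for ZNF408, 16.49 for ZNF319 and 16.44 for ZNF670, the first ones outside it. The other 285 symbols of this name were less abundant. CPM does not account for transcript length, so a place in this order is not a level per molecule of RNA.

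The libraries were poly(A) RNA sequencing libraries of 8 established human blood cancer lines, each cultured with Y518R, a peptide with affinity for DPY30, and in another culture with 3R, a control peptide without it, with 1 library per line and peptide. DPY30 is a shared subunit of the complexes that methylate histone H3 at lysine 4. All cells were grown in Advanced RPMI with 2.5% fetal bovine serum, and the labels give neither dose nor exposure time. MOLM13 and THP1 (myeloid leukaemia lines) carry the fusion MLL-AF9, RS4-11 carries MLL-AF4 and KOPN8 MLL-ENL (both B lineage leukaemia lines). The other 4 lines were K562 (erythroid-like, with BCR-ABL), RAJI (Burkitt's lymphoma), JURKAT (a T cell leukaemia labelled as Myc dependent) and P493-6 (a B cell model of Burkitt's lymphoma). A line is 1 culture type with its own genome, so differences between lines are differences between these lines and not between tissues.

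Most of these proteins bind DNA through repeated C2H2 fingers, short loops in which 2 cysteines and 2 histidines hold a zinc ion. Many also carry a KRAB domain, which recruits the corepressor TRIM28 and with it SETDB1 and other enzymes of heterochromatin. KRAB zinc finger genes expanded by duplication, many lie in clusters on chromosome 19, and several are known to silence retrotransposons. A smaller number carry a SCAN domain, through which the proteins pair with each other, and others have roles outside transcription, in RNA binding, ribosome quality control or mitosis.

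All 200 symbols matched the RefSeq gene table (12 of them under a newer name, such as ZNF642, now ZFP69, or ZNF259, now ZPR1). Of the 200, 196 are protein coding and 4 are pseudogenes (ZNF271, ZNF252, ZNF767 and ZNF788). A KRAB profile matched the coding sequences of 105 of these and missed 91. A SCAN profile matched 16, of which 11 also matched KRAB. The number of finger patterns had a median of 9, with 11 in KRAB members and 7 in the others, and reached 31 in ZNF142 and ZNF91. In 6 members (ZNF330, ZNF259, ZNF706, ZNF738, ZNF839 and ZNF862) no finger pattern was found in the longest reading frame. On chromosome 19 lie 68 members, 52 of them with KRAB. In 35 pairs the members are next to each other among annotated genes, which involves 56 members, and 19 of these pairs are on chromosome 19 and 10 on chromosome 7.

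The promoters shown here are those of genes in a chromosome 19 cluster that differed in which lines expressed them. Their sequences were related, at 70.8% to 86% identical bases in pairs, and a link to expression was not tested. The 250 bases before the annotated start are shown 5′ to 3′ on the gene's strand, with each CG (the dinucleotide that DNA methylation acts on) in capitals. ZNF91 (chr19:23395472-23395721, minus strand) and ZNF254 (chr19:24086937-24087186, plus strand) had next to no reads in MOLM13, whereas ZNF675 (chr19:23687213-23687462, minus strand) and ZNF430 (chr19:21020407-21020656, plus strand) were expressed in all 8 lines. Sequences and positions are from RefSeq, build GRCh38.p14.
ZNF91: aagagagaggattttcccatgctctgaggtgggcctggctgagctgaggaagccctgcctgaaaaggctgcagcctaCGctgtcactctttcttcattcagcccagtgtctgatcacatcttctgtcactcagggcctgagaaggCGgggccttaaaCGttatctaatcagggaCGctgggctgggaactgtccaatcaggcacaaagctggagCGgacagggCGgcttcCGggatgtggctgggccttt
ZNF254: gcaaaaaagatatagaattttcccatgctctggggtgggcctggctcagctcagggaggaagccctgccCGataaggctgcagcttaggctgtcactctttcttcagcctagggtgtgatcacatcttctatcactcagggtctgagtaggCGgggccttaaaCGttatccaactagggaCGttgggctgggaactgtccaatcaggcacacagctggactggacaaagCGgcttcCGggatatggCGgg
ZNF675: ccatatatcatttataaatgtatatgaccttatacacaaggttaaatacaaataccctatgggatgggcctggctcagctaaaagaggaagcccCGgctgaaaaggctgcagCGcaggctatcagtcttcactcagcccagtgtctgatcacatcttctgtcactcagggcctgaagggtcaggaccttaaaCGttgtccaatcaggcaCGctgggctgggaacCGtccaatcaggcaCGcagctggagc
ZNF430: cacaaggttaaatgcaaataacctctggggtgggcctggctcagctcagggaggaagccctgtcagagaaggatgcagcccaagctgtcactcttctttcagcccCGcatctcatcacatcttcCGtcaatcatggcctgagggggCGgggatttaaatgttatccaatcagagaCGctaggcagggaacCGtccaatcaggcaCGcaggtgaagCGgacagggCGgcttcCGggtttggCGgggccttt
The ZNF91 window was identical to that of ZNF254 at 86% of its 250 bases, to that of ZNF430 at 81.6% and to that of ZNF675 at 72.8% in a global alignment. The windows held 7 CG for ZNF91, 7 for ZNF254, 6 for ZNF675 and 10 for ZNF430, against a median of 11 over 35116 RefSeq windows of the same length, of which 43.7% hold 7 or fewer. The letters CCAAT, searched on both strands, occurred once in the ZNF91 and ZNF254 windows and 2 times in those of ZNF675 and ZNF430, and they occur in 32% of all windows. Such matches describe the window only.

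The libraries held 19354300 to 43003124 gene counts, so a count of 0 allows up to 3 counts or 0.0698 to 0.155 CPM. The lines matched their markers: the B cell markers CD79A, CD79B, PAX5 and EBF1 were each at 10 CPM or more in RS4-11, KOPN8, RAJI and P493-6, the 5 T cell markers in JURKAT and the 5 erythroid markers in K562, with 4 or 5 of 5 myeloid markers in MOLM13 and THP1. The RAJI 3R library stands apart, with 44.7% of reads given to no gene against 17.7% to 26.9% in the other 15. The 200 members together took 7081 CPM with Y518R and 8511 CPM with 3R in MOLM13, and 8537 CPM with Y518R and 8502 CPM with 3R in THP1. In the other 6 lines the sum was 6816 to 9888 CPM with Y518R and 6960 to 9674 CPM with 3R. In bulk RNA, a smaller share of cells that express a gene and less RNA per cell cannot be told apart.

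Differences between lines came first in size. From here CPM is scaled by TMM (a correction of the library size for a few abundant genes). The mean level of a member differed by a median of 3.06-fold between its highest and its lowest line, against 4.83-fold for the 13043 genes tested. The range was at least 4-fold in 70 members, which is 35%, against 56.9% of all tested genes, and at least 16-fold in 30 (15% against 29.7%). In 26 members it stayed under 2-fold (13% against 9.31%). The SD over the 8 lines had a median of 0.55 on the log2 scale over the members, against a median size of 0.17 for the log2 ratio of the peptides within a line. KRAB members ranged by a median of 3.68-fold and members without KRAB by 2.88-fold.

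The lowest ranges between lines were those of the following 4 members. ZNF263, a KRAB and SCAN protein that binds many promoters, ranged 1.48-fold, with 54.6 CPM with Y518R and 57.9 CPM with 3R in K562, its lowest line, and 83.8 CPM with Y518R and 82.3 CPM with 3R in P493-6, its highest. ZNF143, an activator of many housekeeping and small RNA promoters, ranged 1.52-fold. ZNF592, a partner of the histone reader ZMYND8, ranged 1.55-fold, and ZNF335, a protein associated with histone H3 lysine 4 methyltransferase complexes, also 1.55-fold. ZNF335 had 46.7 CPM with Y518R and 42.1 CPM with 3R in MOLM13, and 33.7 CPM with Y518R and 37.3 CPM with 3R in JURKAT. At the other end, ZNF516 ranged 1573-fold, ZNF521 1184-fold and ZNF74 949-fold between lines. RAJI had 0 counts of ZNF516 with Y518R and 3 with 3R, and 0 and 1 of ZNF74 in that order. At such levels a fold depends on the small count added before the log2 scale. ZNF521, a regulator of blood progenitors that antagonises the B cell factor EBF1, had 192 CPM with Y518R and 186 CPM with 3R in THP1, 154 CPM with Y518R and 159 CPM with 3R in KOPN8, and 94.8 CPM with Y518R and 105 CPM with 3R in MOLM13. It had 1.39 CPM with Y518R and 1.91 CPM with 3R in RS4-11, 17.0 CPM with Y518R and 18.7 CPM with 3R in JURKAT, and at most 3.75 CPM in K562, RAJI and P493-6. Levels of ZNF521 were thus high in 3 of the 4 lines with an MLL fusion and low in RS4-11, which also has one.

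RAJI was the line with the lowest level for 57 members, which is 28.5%, against 13.2% of all tested genes. The highest level fell in KOPN8 for 34 members (17%, against 10.1% of all tested genes), in P493-6 for 33 (16.5% against 13.7%) and in RS4-11 for 32 (16% against 8.67%). In RAJI it fell for 7 (3.5% against 10.9%). The RAJI 3R library with its large share of reads not assigned to a gene is part of this mean, and the RAJI Y518R library, with 23.4% of such reads, had a lower summed CPM of members (6816) than any other Y518R library.

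Some members were missing from single lines. A member was counted as missing where both libraries of a line had at most 3 counts, which is at or under the floor. There were 19 such cases in 14 members, 7 of which are on chromosome 19 and 7 of which have KRAB, and 186 members were missing from no line. RAJI lacked 6 members (3% of the 200, against 6.42% of all tested genes), MOLM13 lacked 3 (1.5% against 2.84%), RS4-11 3 (1.5% against 2.47%), KOPN8 3 (1.5% against 3.97%), K562 2 (1% against 4.82%) and JURKAT 2 (1% against 3.09%). THP1 and P493-6 lacked none, where 1.17% and 2.78% of all tested genes were missing. The members were chosen for a high mean, which makes a missing value less likely, and these shares are given as a description.

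MOLM13 lacked ZNF254 (2 counts with Y518R and 2 with 3R), ZNF91 (0 counts with Y518R and 3 with 3R) and ZNF253 (1 count with Y518R and 0 with 3R). ZNF91 is the KRAB protein known to silence SVA retrotransposons in human cells. Its level in the 14 libraries of the other lines was 6.20 to 61.2 CPM, with a median of 32.3, and that of ZNF254 was 16.1 to 66.9 CPM. ZNF93, known to silence a family of L1 elements, was at 0.19 CPM with Y518R and 0.55 CPM with 3R in MOLM13, and at 0.037 CPM with Y518R and 0.22 CPM with 3R in JURKAT. It stood at 39.6 CPM with Y518R and 53.5 CPM with 3R in THP1, and at 55.2 CPM with Y518R and 52.4 CPM with 3R in RS4-11. MOLM13 and THP1 carry the same fusion, and MOLM13 was nearly without these members while THP1 expressed them.

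These genes lie in one run on chromosome 19, from ZNF253 to ZNF254, in which the files hold 29 ZNF symbols, 13 of them members. At most 3 counts in each library were found for 17 of the 29 in MOLM13, 13 in RS4-11 and 10 in JURKAT. There were 7 such symbols in KOPN8, 6 in RAJI, 6 in P493-6, 5 in THP1 and 5 in K562. Members among these symbols numbered 3 in MOLM13, 1 in RS4-11, 1 in JURKAT and 0 in the other lines. The rest were less abundant symbols that are not members, and ZNF729 had 0 CPM in every library. The ends of the run, ZNF253 and ZNF254, are members missing in MOLM13, as is ZNF91 inside it. The MOLM13 count is therefore partly set by how the run was cut. The share of such symbols outside the run was not counted. Within the run, MOLM13 expressed a block of members in the middle: ZNF430, ZNF431, ZNF708 and ZNF100 were at 25 to 27.8 CPM with Y518R, and ZNF493 was at 60.1 CPM with Y518R and 92.1 CPM with 3R, the highest of all lines. ZNF43, the next gene among these symbols after ZNF100, had 0 CPM with Y518R and 0.17 CPM with 3R in MOLM13 and at most 0.061 CPM in RS4-11, against 77.4 CPM with Y518R and 83.9 CPM with 3R in KOPN8. The summed CPM of the 29 symbols was 254 with Y518R and 361 with 3R in MOLM13 and 705 with Y518R and 797 with 3R in KOPN8. Genes of this run are close in sequence, and reads shared between them may have been split or dropped in counting.

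RAJI lacked ZNF516, ZNF74, ZNF618, ZNF362, ZNF134 and ZNF264. ZNF74, an RNA-binding KRAB protein, had 0 counts with Y518R and 1 with 3R in RAJI, against 17.0 to 90.7 CPM elsewhere. ZNF264 had 0 counts in both libraries of RAJI and in both of RS4-11, and 40.9 CPM with Y518R and 34.4 CPM with 3R in JURKAT. ZNF532, known as a fusion partner of NUT in carcinoma, had at most 2 counts in each library of RS4-11, KOPN8, K562 and JURKAT, against 26.8 to 62.1 CPM in the other 4 lines. KOPN8 had 0 counts of ZNF711, an X-linked partner of the histone demethylase PHF8, and MOLM13 had 0 counts with Y518R and 4 with 3R, whereas RAJI had 47.4 CPM with Y518R and 53.4 CPM with 3R. JURKAT lacked ZNF738, which lies in the chromosome 19 run, with 2 counts with Y518R and 3 with 3R. The rule asks for both libraries of a line, so that members missing with 1 peptide alone are not among these cases.

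**Figure D1:**
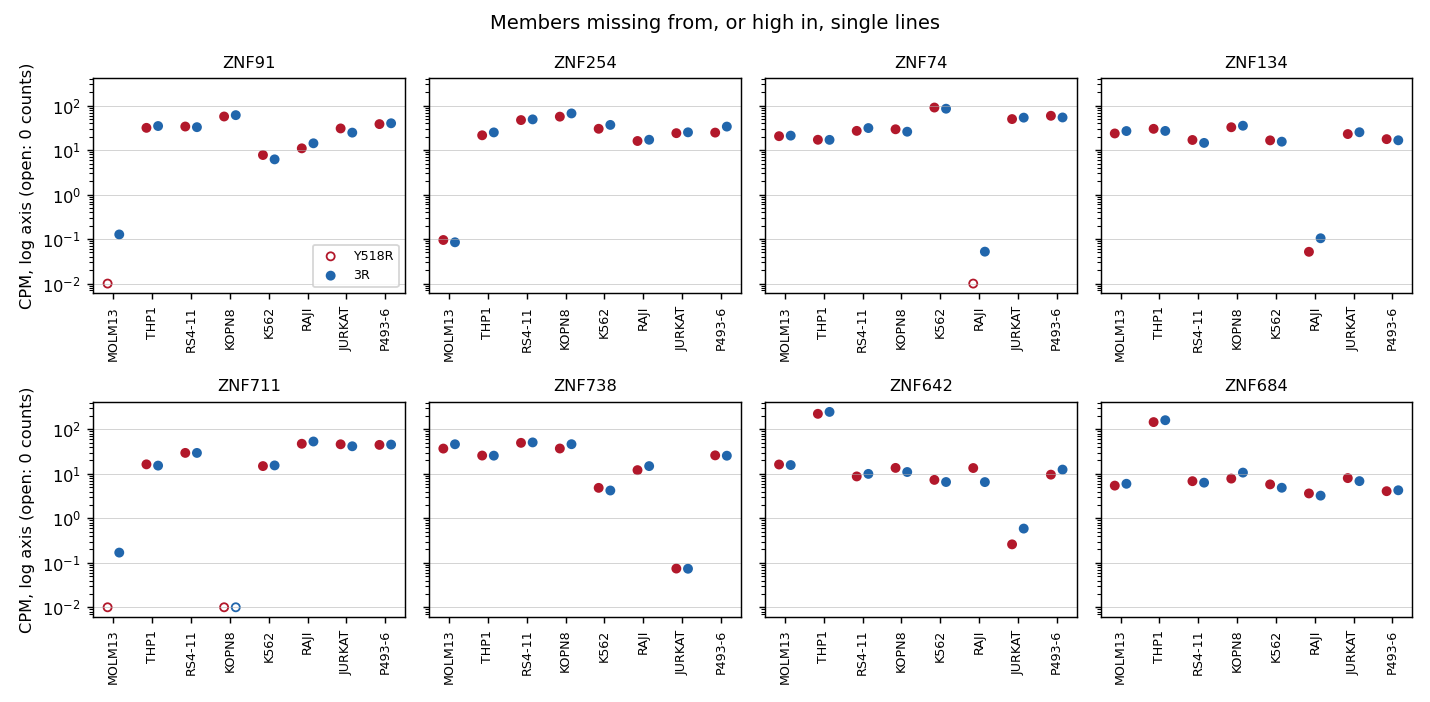
Level of 8 members in every library (TMM-scaled CPM, log axis, Y518R left of 3R in each line; open circles at the bottom are 0 counts). ZNF91 and ZNF254 are missing in MOLM13, ZNF74 and ZNF134 in RAJI, ZNF711 in KOPN8 and ZNF738 in JURKAT, and ZNF642 and ZNF684 stand above every other line in THP1.

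High levels in a single line were seen in THP1. A member was counted as high in a line where the lower of its libraries was at least 4 times the highest library of every other line. In THP1 these were ZNF642 (ZFP69) and ZNF684, 1% of the 200 members, against 0.483% of all tested genes in THP1. No member was high in another line, where 27 (MOLM13) to 114 (K562) of the 13043 tested genes were. ZNF642 had 223 CPM with Y518R and 247 CPM with 3R in THP1 and at most 16.2 CPM elsewhere, a gap of 13.8-fold. ZNF684 had 146 CPM with Y518R and 161 CPM with 3R in THP1 and 3.24 to 10.7 CPM elsewhere, a gap of 13.7-fold. Outside THP1 both were under the level that limits the 200, so both are among them through THP1. They lie close together on chromosome 1, within a run of 7 genes that the files hold, SMAP2, ZNF643 (ZFP69B), ZNF642, DEM1 (EXO5), ZNF684, RIMS3 and NFYC. The lower THP1 library was at least 2 times the highest library of the other lines for 6 of the 7, against 207 of all 13043 tested genes. The run was cut at SMAP2 and NFYC, which were themselves high in THP1. That choice partly sets the 6 of 7, and genes beyond the ends are not shown. SMAP2 had 1945 CPM with Y518R and 1931 CPM with 3R in THP1, against 97.6 to 249 CPM elsewhere. NFYC had 919 CPM with Y518R and 912 CPM with 3R there, against 39.98 to 74.6 CPM elsewhere. RIMS3 had 327 CPM with Y518R and 245 CPM with 3R in THP1, and other lines reached 273 CPM. DNA copy number was not measured in these libraries.

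Neighbouring members tended to have like line patterns. Over the 8 lines, the log2 levels of the 35 neighbouring pairs had a median Pearson correlation of 0.51, with 26 above 0, against 0.072 for the other 19865 pairs of members. On chromosome 19 the medians were 0.54 for 19 neighbouring pairs and 0.16 for 2259 other pairs. The highest were ZNF253 with ZNF93 (0.92) and ZNF260 with ZNF529 (0.92), then ZNF738 with ZNF493 (0.88), all over 8 lines. Neighbours share libraries and, where they are recent duplicates, sequence, so these values are a description.

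The first comparison between classes of lines set MLL-fusion lines against the other lines, with the counts of both libraries of a line summed and lines as replicates (n = 4 each). Estimates lay above 0 more often than below: the log2 difference was above 0 for 126 of 200, with a median of 0.17. Over the 13909 genes tested the median was -0.01, with 49.2% above 0. ZNF symbols outside the 200 had a higher median of 0.48, with 154 of 227 above 0. Leaving out a line gave medians of the members from 0.11 (without RAJI) to 0.23 (without JURKAT). KRAB members had a median of 0.42 on chromosome 19, with 43 of 52 above 0, and of 0.08 elsewhere, with 28 of 53 above 0. Members without KRAB had a median of 0.05, with 53 of 91 above 0. Theirs was 0.00693 on chromosome 19 (8 of 15 above 0) and 0.08 elsewhere (45 of 76 above 0). No member passed an adjusted p of 0.05 in edgeR's quasi-likelihood test with Benjamini-Hochberg adjustment, against 0.0647% of all genes (9 of 13909). At an unadjusted p under 0.05 there were 17 members, 8.50%, against 10.6% of all genes. DESeq2 called 604 of 13909 genes and 8 of 200 members: ZNF430, ZNF45, ZNF507, ZNF521, ZNF687, ZNF707, ZNF708 and ZNF770.

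ZNF770 had a lowest, median and highest level of 54.6, 77.9 and 101 CPM in the 8 libraries of MLL-fusion lines and of 106, 135 and 161 CPM in the 8 of the other lines. The libraries of the classes did not overlap, and the log2 difference was -0.82 ± 0.24 (SE; adjusted p = 0.361, edgeR). Members here were named for a low p, and how many of all genes show no overlap was not counted. Libraries of the same line are not independent values. ZNF708, a KRAB member of the chromosome 19 run, had 20.1, 24.2 and 40.7 CPM in MLL-fusion lines and 8.38, 11.0 and 16.6 CPM in the other lines, again with no overlap, and a log2 difference of 1.23 ± 0.37 (adjusted p = 0.372, edgeR). ZNF687, a partner of ZMYND8 like ZNF592, had 45.7, 57.5 and 74.5 CPM in MLL-fusion lines and 26.8, 35.02 and 46.7 CPM in the other lines. These overlap at their edges, and the log2 difference was 0.77 ± 0.25 (adjusted p = 0.381, edgeR). ZNF507 was lower by 0.69 on the log2 scale in MLL-fusion lines, as -0.69 ± 0.22, ZNF664 by -0.67 ± 0.23 and ZNF584 by -1.22 ± 0.44, and ZNF117 was at 2.21 ± 0.74 (1.47 without MOLM13), ZNF513 at 1.31 ± 0.47, ZNF45 at 1.02 ± 0.36 and ZNF700 at 0.89 ± 0.32. ZNF512 was at -0.81 ± 0.30 and ZNF581 at -1.43 ± 0.54, and adjusted p-values of the 12 ran from 0.361 to 0.433 (edgeR).

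Lymphoid lines (RS4-11, KOPN8, RAJI, JURKAT and P493-6) were set against the myeloid and erythroid lines (MOLM13, THP1 and K562) in the same way. Members had a median log2 difference of 0.08, with 118 of 200 above 0, against 0.00449 over 14826 genes. No member was called by edgeR, against 0.196% of all genes (29 called), and 11 members, 5.50%, had an unadjusted p under 0.05 against 13.1% of all genes. DESeq2 called 1058 of 14826 genes and 5 of 200 members, ZNF142, ZNF232, ZNF440, ZNF48 and ZNF594. ZNF232, a SCAN protein, had a lowest, median and highest level of 25.9, 43.3 and 61.0 CPM in the 10 lymphoid libraries and of 5.96, 13.7 and 18.8 CPM in the 6 myeloid and erythroid ones. The libraries did not overlap, with a log2 difference of 1.78 ± 0.45 (SE; adjusted p = 0.171, edgeR). Here too members were named for a low p, and non-overlap over all genes was not counted.

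ZNF594 had 12, 24.2 and 30.7 CPM in lymphoid libraries and 3.44, 5.76 and 9.33 CPM in myeloid and erythroid ones, also with no overlap, and a log2 difference of 1.84 ± 0.49 (adjusted p = 0.204, edgeR). ZNF142 was at 1.04 ± 0.30, ZNF48 at 0.98 ± 0.30, ZNF107 at 1.60 ± 0.57 and ZNF384, a known fusion partner in B cell leukaemia, at 0.57 ± 0.24. On the lower side, ZNF440 was at -1.14 ± 0.38 and ZNF274, a KRAB and SCAN protein that brings SETDB1 to the 3′ ends of zinc finger genes, at -1.38 ± 0.50. ZNF117 was at -1.91 ± 0.79 (-0.97 without MOLM13) and ZNF865 at -0.63 ± 0.27. ZNF684 at -3.12 ± 1.06 and ZNF642 at -3.27 ± 1.22 rest on THP1: without it the difference was 0.15 for ZNF684 and -0.39 for ZNF642.

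The effect of the peptide was tested with the line as a block, so that each line's Y518R library was set against its own 3R library. No member and no gene was called in any of 4 comparisons (0 of 200 and 0% of 13043 in each, edgeR with Benjamini-Hochberg adjustment). Over all 8 lines, 4 members (2%) had an unadjusted p under 0.05, against 3.04% of all genes. It was 9 members (4.50% against 5.90%) in the MLL-fusion lines, 1 (0.5% against 1.58%) in the other lines and 6 (3% against 3.79%) for the difference between the classes. DESeq2 and limma-voom also called no member in these comparisons. The 4 comparisons use the same 16 libraries, so these shares are not independent of each other and are given as a description.

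Most estimates were small and below 0. Over all 8 lines the median log2 change of the members was -0.03, with 64 of 200 above 0, against -0.00208 for all genes with 6400 of 13043 above 0. Without MOLM13 the median of the members was -0.00637. In the MLL-fusion lines the median was -0.06, with 58 of 200 above 0 (-0.02 without MOLM13 and -0.09 without THP1), and in the other lines 0.01 with 109 of 200 above 0. KRAB members had a median of -0.09 in the MLL-fusion lines, with 23 of 105 above 0, and members without KRAB -0.04, with 34 of 91 above 0. No member had the same sign in all 8 lines, where 31 of all tested genes (0.238%) were lower and 24 (0.184%) higher in 8 of 8. Of the 200 members, 8 were higher with Y518R in 1 line and 5 were higher in 7 lines, against 426 and 346 of the 13043 genes.

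ZNF714, a KRAB member of the chromosome 19 run, had the lowest p over all 8 lines. It had 26.6 CPM with Y518R and 46.2 CPM with 3R in MOLM13, 2.95 CPM with Y518R and 4.24 CPM with 3R in THP1, 20.2 CPM with Y518R and 22.7 CPM with 3R in RS4-11, and 73.1 CPM with Y518R and 85.8 CPM with 3R in KOPN8. It had 21.6 CPM with Y518R and 26.0 CPM with 3R in K562, 23.1 CPM with Y518R and 26.3 CPM with 3R in RAJI, 75.2 CPM with Y518R and 72.0 CPM with 3R in JURKAT, and 11.0 CPM with Y518R and 15.1 CPM with 3R in P493-6. ZNF714 was thus lower with Y518R in 7 of 8 lines and higher in JURKAT, with lines differing far more than peptides, and the log2 change was -0.31 ± 0.09 (SE, n = 8 lines; unadjusted p = 0.0033, adjusted p = 1.0 in edgeR). ZNF254 was at -0.20 ± 0.07, lower in the 7 lines that express it, and ZNF195 at -0.16 ± 0.07. ZNF24, a SCAN protein, was at -0.11 ± 0.06 (-0.07 without MOLM13), ZNF318 at -0.13 ± 0.07 and ZNF652 at -0.13 ± 0.07.

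On the other side, ZNF213, a KRAB and SCAN protein, was at 0.20 ± 0.09, higher with Y518R in 7 of 8 lines. It had 32.5 CPM with Y518R and 21.2 CPM with 3R in MOLM13, and 14.5 CPM with Y518R and 16.7 CPM with 3R in JURKAT, where it was lower. ZNF296 was at 0.22 ± 0.12 and ZNF551 at 0.15 ± 0.08, and without MOLM13 at 0.15 and 0.09 in that order. ZNF777 was at 0.13 ± 0.08, ZNF498 (ZSCAN25) at 0.11 ± 0.07 and ZNF259 (ZPR1) at 0.08 ± 0.06. All 12 of these members had an adjusted p of 1.0 in edgeR.

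Within the MLL-fusion lines the lowest p was that of ZNF276, at -0.35 ± 0.10 (SE, n = 4 lines; unadjusted p = 0.0030, adjusted p = 0.833 in edgeR). It had 46.0 CPM with Y518R and 51.8 CPM with 3R in MOLM13, 22.9 CPM with Y518R and 30.9 CPM with 3R in THP1, 24.9 CPM with Y518R and 34.4 CPM with 3R in RS4-11, and 22.7 CPM with Y518R and 28.4 CPM with 3R in KOPN8. In the other lines it had 41.3 CPM with Y518R and 36.4 CPM with 3R in K562, 32.6 CPM with Y518R and 31.2 CPM with 3R in RAJI, 29.8 CPM with Y518R and 31.7 CPM with 3R in JURKAT, and 55.3 CPM with Y518R and 46.9 CPM with 3R in P493-6. It was lower in each of the 4 MLL-fusion lines and higher in 3 of the 4 others, and the difference between the classes was -0.45 ± 0.14 (adjusted p = 1.0, edgeR).

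ZNF714 (-0.42 ± 0.12), ZNF621 (-0.23 ± 0.09) and ZNF331 (-0.34 ± 0.14), an imprinted KRAB gene, followed in the MLL-fusion lines, with ZNF213 (0.30 ± 0.13), ZNF551 (0.22 ± 0.12), ZNF296 (0.32 ± 0.17) and ZNF584 (0.30 ± 0.17) on the higher side and adjusted p-values of 0.833 to 0.848. Of these, 5 rested much on MOLM13: without it ZNF331 was at -0.21, ZNF213 at 0.20, ZNF551 at 0.12, ZNF296 at 0.19 and ZNF584 at 0.11, and without RS4-11 ZNF584 was at 0.52. In the other lines the lowest p-values were those of ZNF254 (-0.23 ± 0.10), ZNF678 (-0.33 ± 0.15), ZNF277 (-0.23 ± 0.11) and ZNF691 (-0.24 ± 0.13), and, higher with Y518R, ZNF764 (0.23 ± 0.12), ZNF384 (0.20 ± 0.11), ZNF704 (0.36 ± 0.22) and ZNF398 (0.18 ± 0.11). Single lines moved 6 of these 8 by over 1.5 times. ZNF384 was at 0.06 without K562, 0.13 without RAJI and 0.35 without JURKAT, and ZNF398 at 0.04 without RAJI and 0.27 without JURKAT. Without RAJI ZNF277 was at -0.15 and ZNF691 at -0.16, without P493-6 ZNF254 was at -0.15, and without JURKAT ZNF678 was at -0.51. For the difference between the classes, ZNF331 was at -0.54 ± 0.20, ZNF692 at -0.44 ± 0.18 and ZNF621 at -0.29 ± 0.13. ZNF277 (0.41 ± 0.16), ZNF320 (0.34 ± 0.16), ZNF710 (0.29 ± 0.15) and ZNF678 (0.37 ± 0.22) lay on the other side. Without THP1 ZNF692 was at -0.28, and without JURKAT ZNF678 was at 0.56. None of these passed the adjusted threshold.

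**Figure D2:**
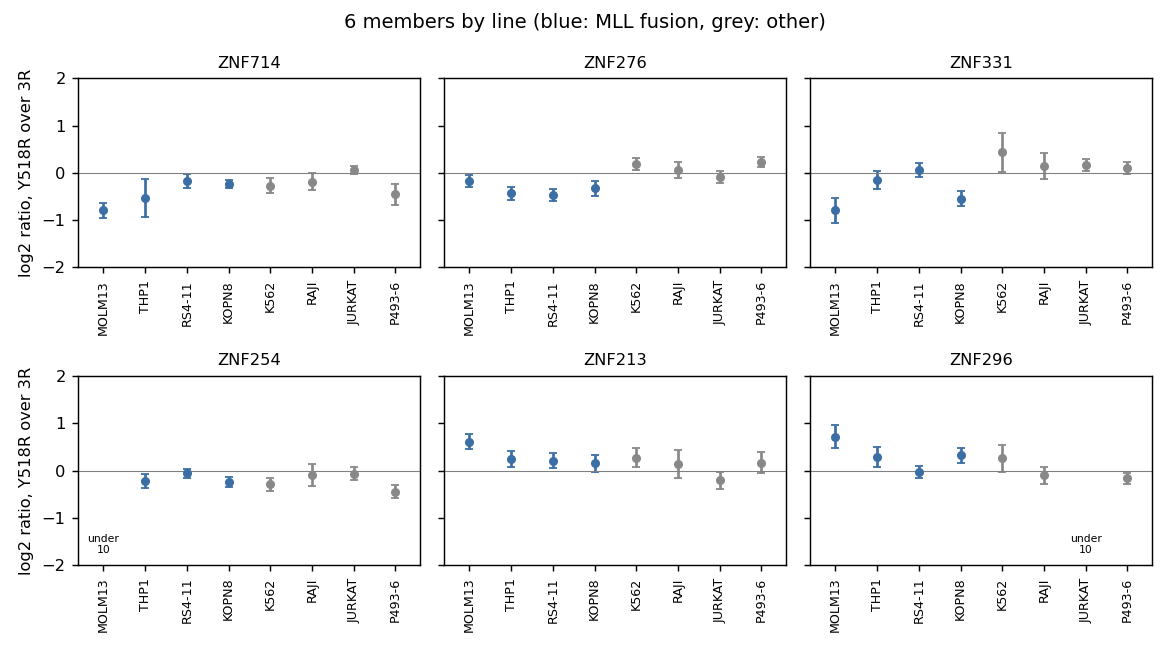
Log2 ratio of Y518R to 3R in each line for 6 members (points, from TMM-scaled CPM; bars, exact 95% counting intervals of a ratio of 2 counts; blue, MLL-fusion lines, grey, other lines). ZNF276 lies below 0 in the 4 MLL-fusion lines, and ZNF714 lies below 0 in every line but JURKAT.

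Within single lines there was 1 library per peptide, so the ratios are given without a test. MOLM13 differed most from 0. Its members had a median log2 ratio of -0.17, with 53 of 200 above 0, while all tested genes had a median of -0.01 with 47.2% above 0. In THP1 the median was 0.01, with 104 of 200 above 0, against 0.02 for all genes. KOPN8 followed MOLM13 with -0.09 and 69 of 200 above 0, and the remaining lines had -0.04 (RAJI), -0.02 (P493-6), 0.00112 (RS4-11), 0.02 (K562) and 0.04 (JURKAT). The exact 95% counting interval of the ratio was below 1 for 99 members and above 1 for 29 in MOLM13 (49.5% and 14.5%, against 31.2% below and 28.3% above over all tested genes with a count). In THP1 it was below 1 for 53 and above 1 for 49 (26.5% and 24.5%, against 28.3% below and 31.9% above). These intervals cover counting error only.

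Large ratios were few. At least 1.5-fold lower with Y518R were 17 members in MOLM13 (8.50%, against 8.66% of all tested genes) and 1 in THP1 (0.5% against 6.52%), and at least 1.5-fold higher were 4 in MOLM13 (2% against 7.15%) and 0 in THP1 (against 9.03%). RAJI had 14 lower (7% against 12.4%) and 5 higher (2.50% against 4.85%). The lower median in MOLM13 was therefore spread over many members with small ratios.

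**Figure D3:**
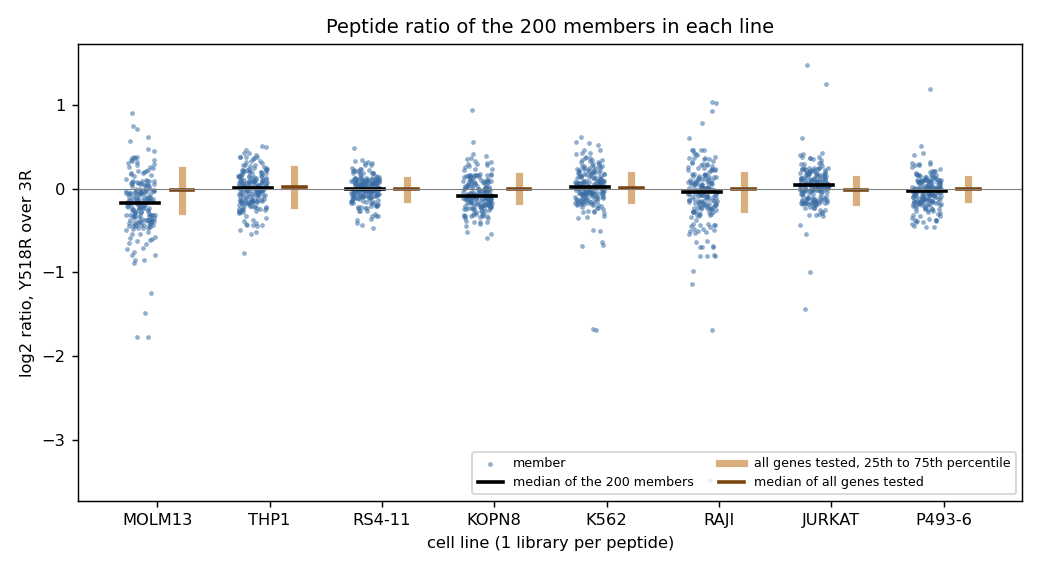
Log2 ratio of Y518R to 3R of the 200 members in each line (blue points; black lines, medians of the members; orange bars and brown lines, 25th to 75th percentile and median of all 13043 genes tested). The members of MOLM13 centre at -0.17 and those of KOPN8 at -0.09, while those of THP1 centre at 0.01.

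The gene families most like the members had medians on the same side in MOLM13. The median log2 ratio there was -0.16 for 220 tested ZNF symbols outside the 200, -0.32 for 31 ZBTB genes (zinc fingers with a BTB domain), -0.22 for 15 ZFP genes, -0.18 for 5 ZKSCAN genes and -0.12 for 10 ZSCAN genes. In THP1 the same families had medians of 0.01, 0.09, 0.02, 0.17 and 0.11 in that order. The 25 genes of the KRAB corepressor machinery, which include the member ZNF274, had a median of 0.08 in MOLM13 and 0.04 in THP1. None of the 25 was called by edgeR over all 8 lines, where TRIM28 was at 0.09 ± 0.05 and SETDB1-binding ATF7IP at 0.11 ± 0.06 (adjusted p = 1.0 each).

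In MOLM13 the median log2 ratio was -0.23 for KRAB members (24 of 105 above 0) and -0.11 for members without KRAB (28 of 91 above 0). By position alone it was -0.18 for members on chromosome 19 (19 of 68 above 0) and -0.16 for those elsewhere (34 of 132 above 0). Split by both, KRAB members were at -0.27 on chromosome 19 (10 of 52 above 0) and -0.14 elsewhere (14 of 53 above 0), and members without KRAB at 0.04 on chromosome 19 (8 of 15 above 0) and -0.17 elsewhere (20 of 76 above 0). Chromosome 19 members were thus on both sides, lower with KRAB and near 0 without it. By finger number it was -0.25 for members with 10 or more patterns (17 of 89 above 0) and -0.10 for those with 1 to 9 (33 of 101 above 0), and the Pearson correlation of finger number with the ratio was -0.24 over 196 members in MOLM13 and 0.030 in THP1. KRAB members also have more finger patterns (median 11, against 7 without KRAB), and no test separated these features. In KOPN8, 7 of 52 KRAB members on chromosome 19 were above 0 (median -0.14), while in JURKAT 39 of 52 were (median 0.16) and in THP1 29 of 52 (median 0.02). The direction of this group was thus not shared between lines.

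**Figure D4:**
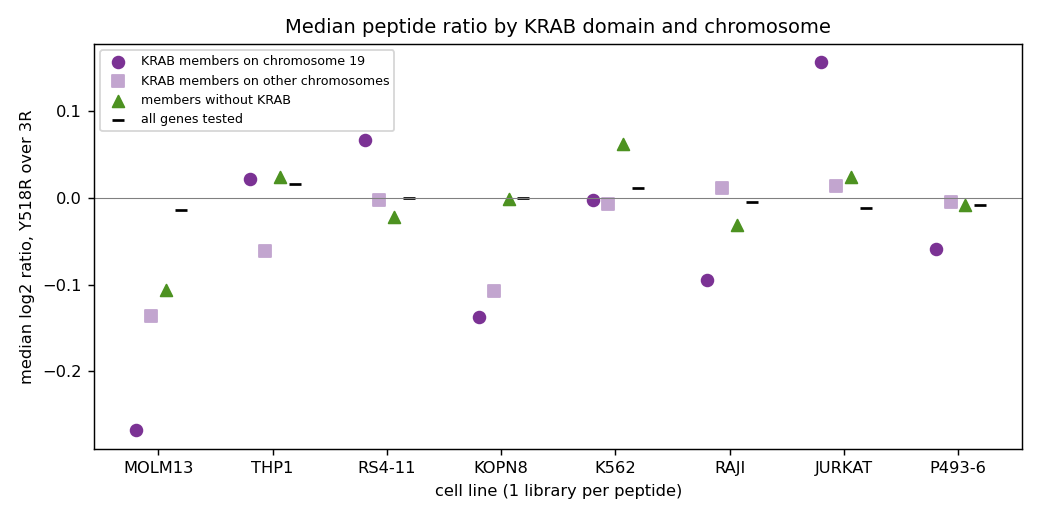
Median log2 ratio of Y518R to 3R in each line for KRAB members on chromosome 19, KRAB members on other chromosomes, members without KRAB and all genes tested. KRAB members on chromosome 19 have the lowest median in MOLM13 (-0.27) and the highest in JURKAT (0.16).

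Among members at 10 CPM or more in either MOLM13 library, the lowest ratios belonged to ZNF548, ZNF107, ZNF182, ZNF714, ZNF331 and ZNF138. ZNF548 had 15.9 CPM with Y518R and 29.5 CPM with 3R in MOLM13 (log2 ratio -0.89; fold 0.540, counting interval 0.473 to 0.616) and 19.8 CPM with Y518R and 18.6 CPM with 3R in THP1 (0.09). ZNF107 had 37.2 CPM with Y518R and 67.3 CPM with 3R in MOLM13 (-0.85) and 57.5 CPM with Y518R and 54.4 CPM with 3R in THP1 (0.08). Both were low with Y518R in MOLM13 and about level in THP1. ZNF182 was at -0.85 in MOLM13 and -0.15 in THP1, ZNF331 at -0.79 and -0.15, ZNF138 at -0.70 and 0.33, and ZNF714 at -0.79 and -0.52. ZNF714 was the one of the 6 whose counting interval lay below 1 in both lines, at 0.519 to 0.639 in MOLM13 and 0.525 to 0.914 in THP1.

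At the same limit of 10 CPM, the highest ratios in MOLM13 were those of ZNF584 (0.91), ZNF296 (0.72), ZNF213 (0.61), ZNF551 (0.57), ZNF277 (0.45) and ZNF174 (0.39). ZNF584, a KRAB member, also had the highest ratio in THP1, with 10.2 CPM with Y518R and 5.38 CPM with 3R in MOLM13 and 16.5 CPM with Y518R and 11.6 CPM with 3R in THP1. Its fold was 1.89 (counting interval 1.51 to 2.37) in MOLM13 and 1.43 (1.24 to 1.64) in THP1, but its log2 ratio was -0.32 in RS4-11 and -0.12 in JURKAT. ZNF296, ZNF213 and ZNF551 were at 0.29, 0.24 and 0.28 in THP1 in that order.

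Among members at 10 CPM or more in either THP1 library, the lowest ratio there was that of ZNF692, with 39.9 CPM with Y518R and 68.2 CPM with 3R (log2 ratio -0.77; fold 0.586, counting interval 0.545 to 0.629), against 122 CPM with Y518R and 117 CPM with 3R in MOLM13 (0.07). ZNF787 had 42.3 CPM with Y518R and 61.7 CPM with 3R in THP1 (-0.55) and was at 0.19 in MOLM13. ZNF48 (-0.50), ZNF195 (-0.45), ZNF23 (-0.44) and ZNF93 (-0.43) followed. Of these, ZNF195 was also low in MOLM13, at -0.46. After ZNF584 (0.51), the highest in THP1 were ZNF192 (ZKSCAN8, 0.49), ZNF618 (0.46), ZNF268 (0.43), ZNF525 (0.43) and ZNF101 (0.40), which were at -0.09, -0.03, -0.22, 0.48 and -0.40 in MOLM13 in that order.

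ZNF584 was the one member named for a large ratio in both MLL-AF9 lines. Of the 200 members, 68 were below 0 in both, 79 were below 0 in MOLM13 and above 0 in THP1, 28 the reverse, and 25 above 0 in both. The Pearson correlation of the ratios was 0.048 over 200 members, given as a description. Neither the signs nor the correlation were computed over all tested genes, so neither is shown to be particular to the members. Of the 17 members at least 1.5-fold lower in MOLM13, 10 were below 0 in THP1.

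**Figure D5:**
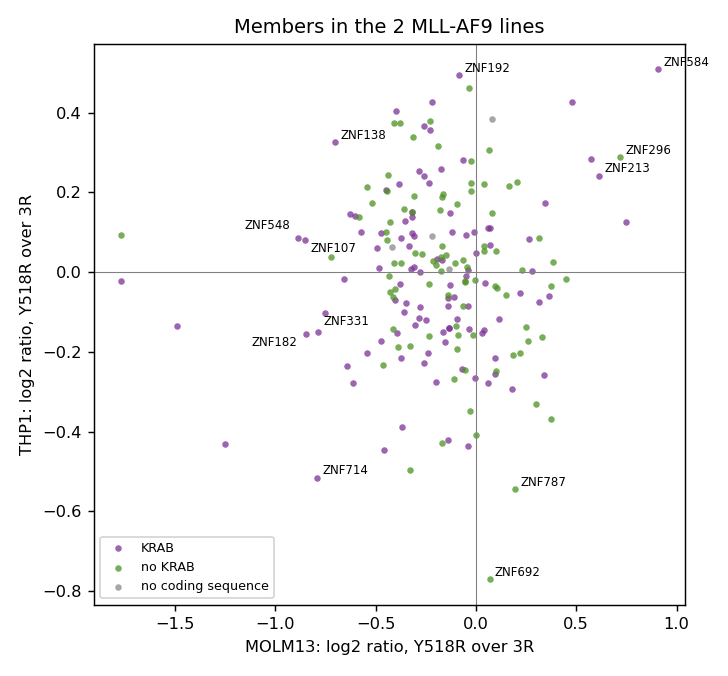
Log2 ratio of Y518R to 3R of each member in MOLM13 (horizontal) and THP1 (vertical), coloured by KRAB. Most points lie left of 0 and spread evenly above and below 0, with ZNF584 high in both lines, ZNF714 low in both, and ZNF692 low in THP1 alone of the pair.

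The 10 members with the highest mean and those with a textbook role were described in the same way. ZNF207, a spindle assembly protein, had 172 CPM with Y518R and 177 CPM with 3R in MOLM13 and 314 CPM with Y518R and 312 CPM with 3R in THP1, and its log2 ratio lay between -0.07 and 0.01 in all 8 lines. ZNF598, the ubiquitin ligase that senses collided ribosomes, had 148 CPM with Y518R and 147 CPM with 3R in MOLM13, 95.7 CPM with Y518R and 127 CPM with 3R in THP1, and 182 CPM with Y518R and 144 CPM with 3R in K562. ZNF146 was at -0.39 in MOLM13 and -0.19 in THP1, ZNF24 at -0.43 and -0.05, ZNF638, which silences unintegrated retroviral DNA, at -0.43 and -0.01, and ZNF217, a factor amplified in breast cancer, at -0.41 and 0.02. ZNF664, ZNF22, ZNF318 and ZNF770, the rest of the 10 with the highest mean, were at -0.05, -0.14, -0.36 and -0.20 in MOLM13 in that order.

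Of 35 genes listed for a known role, 30 were members, and none of the 30 was called or had an unadjusted p under 0.05 in any peptide comparison. Their median log2 ratio was -0.34 in MOLM13, with 5 of 30 above 0, and -0.05 in THP1, with 12 of 30 above 0. In MOLM13, ZNF148 was at -0.58, ZNF281, a MYC-binding regulator of stem cell genes, at -0.55, ZNF326, a splicing-linked RNA-binding protein, at -0.52 and ZNF410, known as an activator of the gene for the NuRD subunit CHD4, at -0.46. ZNF445, a KRAB protein that keeps genomic imprints, was at -0.28 there, and below 0 in 7 of 8 lines. The ribosome assembly factors ZNF593 and ZNF622 were at 0.19 and 0.09 in MOLM13. ZNF75D, ZNF106, ZNF300, ZNF350 and ZNF423 were listed but are not among the 200.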

How the data were processed

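The authors deposited raw counts, the number of reads given to each gene symbol, for 8 cell lines with 1 library per peptide. Tools listed in the submitters' processing notes are TopHat2 2.1.1 and HTSeq 0.6.1, with CASAVA 1.8.4 and both DESeq2 3.0 and DESeq, and no role is stated. The notes list 2 builds, hg19 and GRCh38, and do not tie either to the counts. Whether counting used strand is not stated, so antisense or overlapping genes and near-identical zinc finger copies may share reads. Each library's 5 entries that name no gene were left out of totals and tests, and the share of reads not assigned to a gene was 17.7% to 44.7%.

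The 200 members and all lists were chosen with earlier results of these data known. Counts were tested with edgeR 4.0.16 (quasi-likelihood test, TMM scaling, filterByExpr at a minimum count of 10) in R 4.3.3, with Benjamini-Hochberg adjustment over all genes kept and calls at an adjusted p under 0.05. All 200 members passed this filter. The 4 peptide comparisons used all 16 libraries with cell line as a block, which the labels give. The 2 comparisons of line classes used the summed counts of each line, and the lineages are textbook knowledge checked on markers. The SE of an edgeR change was taken from the change and its F statistic. No label mentions replicate cultures, so the lines served as replicates. In the peptide comparisons the block takes up each line's own level. Their p-values reflect how much the ratio between the peptides varies from line to line. In the comparisons of line classes, p-values reflect how much the lines of a class differ from each other. Ratios within a line use TMM-scaled CPM (prior count 2) and have exact 95% counting intervals. The fits were tested on simulated data. Alternatives were DESeq2 1.42.0, limma-voom (limma 3.58.1), other size factors, no filter, no block and leaving out each line.

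KRAB and SCAN domains were found with sequence profiles (E value 0.001) in the longest reading frames of GENCODE transcripts, in place of the RefSeq proteins first planned, and finger patterns with a C2H2 motif. Named members are those with the highest mean, the lowest p in each comparison, the largest ratios in MOLM13 and THP1, missing or high members of single lines, listed textbook roles, the neighbours of the limit, and ZNF714, which an earlier account of these data had named.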

Additional observations from a re-analysis of the deposited data

Results flagged for a closer look

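Over the 8 lines, 40 sets of values were examined for a line that lay far from the others. These were 35 members named from the peptide comparisons, the medians of the members, and the summed level and share of unassigned reads for each peptide. Chance alone flags about 1 in 20 of sets not chosen by their values. The members were chosen by p or ratio in these same data, so that rate does not hold for them. ZNF182 and ZNF548 (MOLM13) and ZNF787 (THP1) were named for their ratio in the line flagged. The share of reads given to no gene was 44.7% in the RAJI 3R library, far above the other 3R libraries. The log2 ratio of Y518R to 3R stood apart for ZNF182 (-0.85 in MOLM13), ZNF548 (-0.89 in MOLM13), ZNF259 (-0.20 in THP1), ZNF787 (-0.55 in THP1) and ZNF398 (0.61 in RAJI). The RAJI ratio of ZNF398 rests on the 3R library named above.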

How the results depend on the processing

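No ZNF member was called in any peptide comparison under any alternative run, with no replicate block included (0 members and 0 genes called in each comparison). Counts of all genes called moved where the main value was 0. Without the filter on low counts 3, 52, 1 and 9 genes were called (all lines, MLL-fusion lines, other lines, difference). DESeq2 called 1 in the MLL-fusion lines and 2 for the difference, and limma-voom 3, 20, 2 and 2. Leaving out a line gave 0 to 3 in the MLL-fusion lines (3 without MOLM13) and 0 to 1 for the difference. For MLL-fusion against other lines, 9 genes became 604 with DESeq2 (8 members), 1 with limma-voom, 4 with Y518R libraries alone and 3 to 10 without a line (3 without JURKAT, 4 without MOLM13). For lymphoid lines, 29 became 1058 with DESeq2 (5 members), 18 with Y518R libraries alone and 4 to 163 without a line (163 without K562, 48 without JURKAT, 17 without RS4-11, 12 without KOPN8, 10 without MOLM13, 8 without RAJI and 4 without THP1). The cause was not tested. Of the members named from these comparisons, ZNF684 turned to 0.15 without THP1, and 10 others passed the threshold with DESeq2.

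The MOLM13 median was -0.25 when scaled by the library total, where the median of all genes was -0.09, so the distance of the members from all genes was -0.15 on either scale. The medians of THP1 under DESeq2's size factors (-0.00225) and of P493-6 under the library total (0.00396) changed sign near 0. With a limit of 10 counts the missing members numbered 6 in MOLM13, 5 in KOPN8, 4 in K562, 5 in JURKAT and 1 in P493-6. Of the 13043 tested genes, 737, 936, 1158, 720 and 668 were missing there in that order. With a limit of 2-fold 1 member each was high in MOLM13, RS4-11 and KOPN8, against 156, 114 and 142 of all tested genes. Ranked by TMM-scaled CPM, 199 of the 200 were shared. Without replicate cultures, single-line ratios have counting error as their one measured error.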
